A study of Homo sapiens with 6 samples.

Results

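Axon guidance ligands and receptors were first described as cues that steer growing nerve fibers, and they also act on fibroblasts, vessels and epithelia. Semaphorins are secreted or membrane-bound ligands that signal through plexins, with neuropilins as co-receptors for most class 3 semaphorins. Ephrins are ligands tied to the membrane and bind EPH receptor tyrosine kinases on neighboring cells, SLIT proteins are secreted and bind ROBO receptors, and netrins bind UNC5 receptors and DCC. Most of these systems change the cytoskeleton, adhesion and migration of the cell that carries the receptor.

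The genes described here are all protein-coding genes of the deposited MRC5 count table whose symbol marks a semaphorin of class 3 to 7, a plexin, a neuropilin, an ephrin, an EPH receptor, a SLIT, a ROBO, a netrin or a UNC5 receptor. The table holds 68 such genes among 58676 gene identifiers. Of these, 60 had at least 10 counts summed over the 6 libraries, 33 ligands and 27 receptors, and they are called members below. The other 8 were *EPHA6*, *EPHA8*, *EPHA10*, *SEMA5B*, *UNC5A* and *UNC5D*, each with 0 counts, *PLXNA4* with 4 counts in all and *SLIT1* with 6. A count of 0 over all libraries means not detectable at this depth.

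MRC5 is a line of human lung fibroblasts. In 3 libraries (control ATII CM) the cells had spent 24 h in conditioned media (CM) from control ATIIER:KRASV12 cells, a human alveolar epithelial type II line in which 4-OHT, an estrogen receptor ligand, switches on a KRASV12 fusion protein. In the other 3 (4-OHT ATII CM) the CM came from cells of that line treated with 4-OHT. Whether the CM still held 4-OHT is not given in the sources used here, so 4-OHT itself and factors released by the RAS-activated cells cannot be told apart. One fibroblast line was used, and the labels do not say whether replicates were separate cultures, so p values measure the spread between these libraries.

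Library totals ranged from 17691849 to 26389449 counts. Replicates differed by more than counting noise (chi-square per degree of freedom 2.04 to 5.56), and control ATII CM replicate 2, the smallest library, lay farthest out on the first principal component. All 9 fibroblast markers were above 1 CPM and summed to 41000 to 44500 CPM in control and 42900 to 44600 CPM in 4-OHT ATII CM. Of these, *DCN*, *LUM*, *PDGFRA* and *COL3A1* were higher in 4-OHT ATII CM by log2 fold changes of 0.18 to 0.33 and *VIM* was lower, at -0.1 (edgeR adjusted p of 2.66e-06 to 0.0414). Of 8 epithelial markers none reached 1 CPM (sums of 0.794 to 1.41 and 0.342 to 1.05 CPM), with *SFTPA1*, *NKX2-1* and *KRT5* at 0, and 4 immune markers summed to at most 0.112 CPM. Of 6 neuron and glia markers, *TUBB3*, *SYT1* and *SNAP25* were above 1 CPM (sums of 12.1 to 16.1 and 14.4 to 15.1 CPM) and *ELAVL4* was at 0. Of 5 endothelial markers only *TEK* exceeded 1 CPM (sums of 120 to 138 and 163 to 172 CPM), while *PECAM1* and *CDH5* had no counts. *TEK* had a log2 fold change of 0.37 (edgeR adjusted p = 0.000162), and the part of these markers in the results below was not tested.

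MRC5 cells expressed a wide set of these genes at very unequal levels. Levels between genes are given per kilobase of merged exons (RPKM), and 41 of the 60 members had a mean of 1 RPKM or more over the 6 libraries. The highest level was that of *PLXNB2*, which encodes a receptor for class 4 semaphorins, at 93.7 RPKM. Next came *NTN4* (55.3 RPKM), a netrin of basement membranes, the receptor *EPHA2* (25.0 RPKM), the ephrin *EFNB1* (23.6 RPKM) and the receptor *PLXNA1* (20.3 RPKM). At the other end, *EPHB6*, *EPHA3*, *SEMA3G* and *EPHB1* were at 0.0196 to 0.0371 RPKM.

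**Figure D1:**
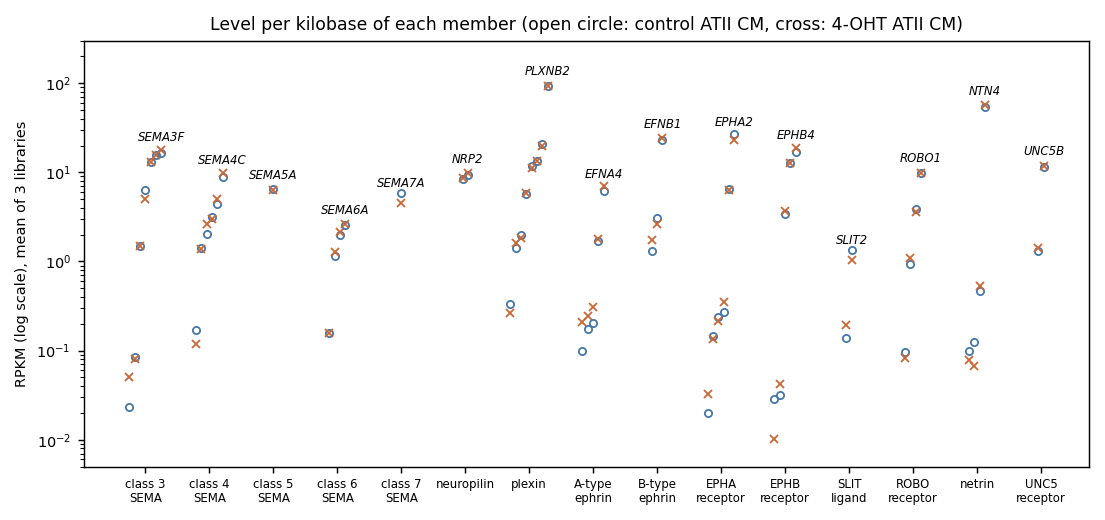
Mean RPKM of each of the 60 members (y axis, log scale, 3 libraries a group) by family (x axis), with open circles for control and crosses for 4-OHT ATII CM; the most abundant member of each family is named. The 2 symbols of abundant members lie close together, and levels run from below 0.1 RPKM to 93.7 RPKM for *PLXNB2*.

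Together the members took 0.317% to 0.320% of all counts in control ATII CM and 0.318% to 0.321% in 4-OHT ATII CM, and *PLXNB2* alone held 20.9% to 21.8% of the member counts. Summed over ligands, the level was 184 ± 1.08 RPKM (SD, n = 3) in control and 189 ± 1.21 RPKM in 4-OHT ATII CM. Summed over receptors it was 261 ± 2.01 and 259 ± 1.21 RPKM.

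Changes were tested across all 19072 genes with edgeR, with a positive log2 fold change for a higher level in 4-OHT ATII CM and an adjusted p below 0.05 as the call. Among the members 6 were called, *SEMA4D* and *SEMA4B* upregulated and *SEMA3C*, *SLIT2*, *SEMA7A* and *EPHA2* downregulated. That is 10.0% of the members, while 5.72% of all genes tested were called (2.95% higher and 2.76% lower). Genes with few counts are rarely called, and among genes at 1 RPKM or more the shares were 14.6% of 41 members and 9.08% of 11327 genes. The median log2 fold change of the members was 0.016, with 34 higher and 26 lower, beside -0.002 for all genes tested, and without the 4 members at 3 counts or fewer in every library of a group it was 0.0093. In 20 members (33.3%) the groups did not overlap, as in 22.1% of all genes.

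Of the 33 ligands 5 were called (15.2%), and of the 27 receptors 1 was, *EPHA2* (3.7%). An unadjusted p below 0.05 was found for 10 ligands and 5 receptors, 15 of the 60 members in all, beside 17.3% of all genes tested. No difference between ligands and receptors was tested. None of the 6 called genes shares exon bases with another gene of the table. For members that do, reads on shared bases may be mixed or lost, since the strand setting of the counting is not given in the sources used here. Some overlaps are on the same strand, where no strand setting separates the genes. These include *EFNA4* and *EFNA3* with *EFNA4-EFNA3* (189 and 395 bases) and *PLXNB3* with *SRPK3* (412 bases).

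**Figure D2:**
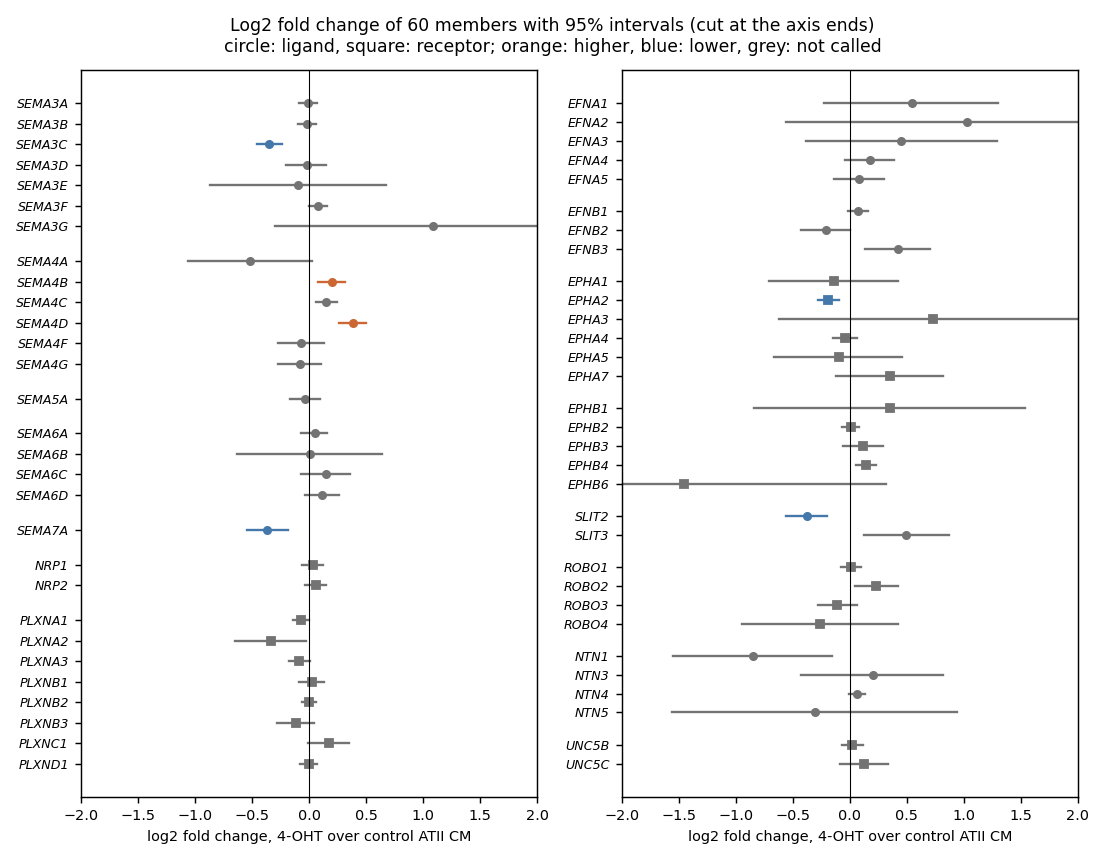
Log2 fold change of each of the 60 members (x axis, 4-OHT over control ATII CM) with its 95% interval from edgeR, circles for ligands and squares for receptors, orange for upregulated, blue for downregulated and grey for members not called. The 6 called members have intervals clear of 0, and the widest intervals belong to members with few counts such as *EPHB6* and *SEMA3G*.

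Class 4 semaphorins are membrane-bound ligands that can be shed, and they bind mainly B-type plexins. *SEMA4D* (ENSG00000187764, chromosome 9 of GRCh38, 89360787 to 89498130) was at 29.3, 26.9 and 30.3 CPM in replicates 1 to 3 of control ATII CM and at 36.1, 38.5 and 38.0 CPM in 4-OHT ATII CM. The groups did not overlap. The log2 fold change came to 0.38 (standard error 0.0547, edgeR adjusted p = 0.000546), a rise of 30.0%, and *SEMA4D* was called in all 13 alternatives, where its log2 fold change ranged from 0.34 to 0.41.

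*SEMA4B* (ENSG00000185033, chromosome 15, 90160604 to 90229679), a member of the same class, was at 30.0, 32.5 and 30.4 CPM in control and 33.8, 35.9 and 36.3 CPM in 4-OHT ATII CM. The groups were close but did not overlap, and the log2 fold change came to 0.20 (standard error 0.0525, edgeR adjusted p = 0.0390). It was not called with DESeq2 (adjusted p = 0.0916) or, with edgeR, without control replicate 1 (adjusted p = 0.139) or 3 (adjusted p = 0.159) or 4-OHT replicate 2 (adjusted p = 0.146) or 3 (adjusted p = 0.190).

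*SEMA4C* (ENSG00000168758, chromosome 2, 96859716 to 96870757), the most abundant class 4 semaphorin at 9.38 RPKM and a ligand of plexin-B2, was at 54.7, 54.3 and 55.5 CPM in control and 57.7, 60.8 and 63.5 CPM in 4-OHT ATII CM. The groups did not overlap, and the log2 fold change of 0.15 (standard error 0.0428) had an adjusted p of 0.0572 from edgeR. With 1 library left out it ranged from 0.11 (adjusted p = 0.325, without 4-OHT replicate 3) to 0.19 (adjusted p = 0.0297, without 4-OHT replicate 1), and only the latter was called. The other 3 members of the class, *SEMA4A*, *SEMA4F* and *SEMA4G*, had log2 fold changes of -0.52, -0.07 and -0.08 and were not called. *SEMA4A* had 17 to 28 counts a library, and the exons of *SEMA4G* overlap those of *MRPL43* on the opposite strand by 382 bases.

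None of the B-type plexins was called. *PLXNB2* (ENSG00000196576, chromosome 22, 50274979 to 50307627) was at 671, 684 and 682 CPM in control and 683, 692 and 667 CPM in 4-OHT ATII CM. Its fitted log2 fold change was 0.0037, with a 95% interval of -0.06 to 0.06. For *PLXNB1*, the high-affinity receptor of semaphorin 4D, it was 0.020 with an interval of -0.09 to 0.13. *PLXNB3*, which was paired with *SEMA5A* and not with a class 4 semaphorin, had a value of -0.12.

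Class 3 semaphorins are secreted, and 1 of the 7 was called. *SEMA3C* (ENSG00000075223, chromosome 7, 80742538 to 80922359), which signals through neuropilins with plexin-D1 or A-type plexins, was at 40.2, 39.5 and 40.7 CPM in control and 33.4, 31.7 and 29.6 CPM in 4-OHT ATII CM. The control libraries lay close together and above every library of the other group. The log2 fold change came to -0.35 (standard error 0.0522, edgeR adjusted p = 0.000717), a fall called in all 13 alternatives, with log2 fold changes from -0.39 to -0.31.

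*SEMA3F* (ENSG00000001617, chromosome 3, 50155045 to 50189075), a ligand of neuropilin-2 and the most abundant of the class at 17.2 RPKM, was at 78.6, 82.3 and 81.5 CPM in control and 85.5, 84.6 and 85.9 CPM in 4-OHT ATII CM. Its groups did not overlap, but the log2 fold change of 0.079 had an adjusted p of 0.286, and its exons overlap those of *SEMA3F-AS1* on the opposite strand. *SEMA3A*, the classic repellent of the class, and *SEMA3B* were at 13.1 and 15.7 RPKM with log2 fold changes of -0.0072 and -0.02. *SEMA3D* and *SEMA3E*, on chromosome 7 like *SEMA3A* and *SEMA3C*, had values of -0.02 and -0.10. *SEMA3G* had 1 to 8 counts a library, too few for a comparison.

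Neither neuropilin was called. *NRP2* (ENSG00000118257, chromosome 2, 205681990 to 205798133) was at 136, 120 and 135 CPM in control and 133, 135 and 139 CPM in 4-OHT ATII CM, with a log2 fold change of 0.056 and a 95% interval of -0.04 to 0.15. Without control replicate 2, the lowest library, it was 0.0023. *NRP1* had a value of 0.032 with an interval of -0.06 to 0.12. Of the plexins used with neuropilins, *PLXND1* had a log2 fold change of -0.0042 with an interval of -0.08 to 0.07.

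A-type plexins carry the signal of class 3 and class 6 semaphorins. *PLXNA1* (ENSG00000114554, chromosome 3, 126988594 to 127037392) was at 229, 223 and 229 CPM in control and 215, 215 and 220 CPM in 4-OHT ATII CM. It was lower in all 3 libraries of 4-OHT ATII CM, and its log2 fold change of -0.069 had an adjusted p of 0.287 from edgeR. *PLXNA2* (ENSG00000076356, chromosome 1, 208022242 to 208244320) was at 5.43, 4.20 and 4.02 CPM in control and 3.70, 3.53 and 3.58 CPM in 4-OHT ATII CM, for a log2 fold change of -0.34 (adjusted p = 0.235) that was -0.19 (adjusted p = 0.616) without control replicate 1, and *PLXNA3* had a value of -0.09.

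*SEMA7A* (ENSG00000138623, chromosome 15, 74409289 to 74433958) encodes a semaphorin with a lipid anchor that binds β1 integrins and plexin-C1. It was at 21.9, 24.9 and 20.0 CPM in control and 18.2, 15.8 and 17.6 CPM in 4-OHT ATII CM. The groups did not overlap, and the log2 fold change came to -0.37 (standard error 0.0832, edgeR adjusted p = 0.0143). Without 4-OHT replicate 2 it was -0.31 with an adjusted p of 0.0929, and all 12 other alternatives called it. *PLXNC1*, whose exons overlap *CEP83* on the opposite strand, ranged from 12.6 to 15.5 CPM in control and from 14.7 to 16.9 CPM in 4-OHT ATII CM, with a log2 fold change of 0.17 and an interval of -0.01 to 0.35.

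Of class 5 and class 6 semaphorins, which are transmembrane proteins, none was called. *SEMA5A* (ENSG00000112902, chromosome 5, 9035026 to 9546075) was at 86.5, 68.5 and 82.2 CPM in control and 77.9, 76.8 and 76.5 CPM in 4-OHT ATII CM. Control replicate 2 was the lowest of all 6 libraries and the other 2 controls were above every library of 4-OHT ATII CM. The log2 fold change was -0.041 (adjusted p = 0.805) with all libraries and -0.13 (adjusted p = 0.0351 from edgeR) without that replicate. *SEMA6A* (ENSG00000092421, chromosome 5, 116443616 to 116574934), a ligand of plexins A2 and A4, was at 29.4, 27.4 and 27.4 CPM in control and 29.0, 28.0 and 30.0 CPM in 4-OHT ATII CM. The log2 fold change came to 0.045, and those of *SEMA6B*, *SEMA6C* and *SEMA6D* were 0.01, 0.15 and 0.11.

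**Figure D3:**
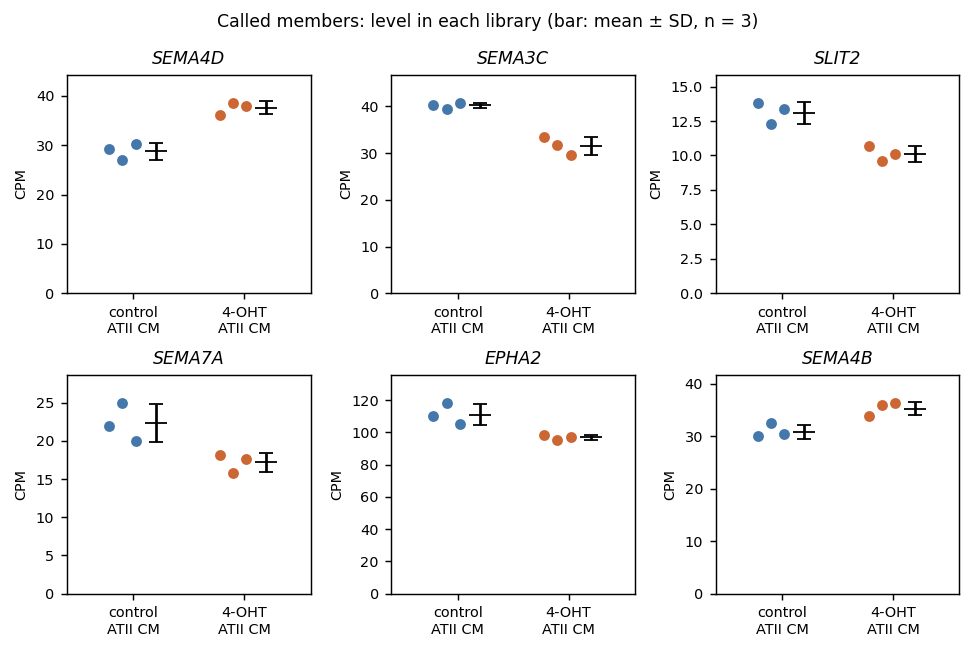
CPM (y axis, from 0) of the 6 called members in each library, 3 of control ATII CM and 3 of 4-OHT ATII CM, with the mean and SD beside the points (n = 3). In all 6 panels the groups do not overlap, with *SEMA4D* and *SEMA4B* higher and *SEMA3C*, *SLIT2*, *SEMA7A* and *EPHA2* lower in 4-OHT ATII CM.

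SLIT2 and SLIT3 are large secreted ligands of ROBO receptors and limit the migration of many cell types. *SLIT2* (ENSG00000145147, chromosome 4, 20253260 to 20620561) was at 13.8, 12.3 and 13.4 CPM in control and 10.7, 9.58 and 10.1 CPM in 4-OHT ATII CM. The groups did not overlap, and the log2 fold change came to -0.38 (standard error 0.0836, edgeR adjusted p = 0.0119). The call was lost without 4-OHT replicate 2 (adjusted p = 0.0686), control replicate 1 (adjusted p = 0.0581) or control replicate 3 (adjusted p = 0.0508), with log2 fold changes of -0.35, -0.35 and -0.37.

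*SLIT3* (ENSG00000184347, chromosome 5, 168661733 to 169301129) was at a much lower level, with values on the other side of 0. It had 44, 30 and 48 counts in control and 55, 75 and 73 in 4-OHT ATII CM, which is 1.68 to 2.12 CPM against 2.51 to 3.01 CPM. The log2 fold change of 0.49 (standard error 0.176) had an adjusted p of 0.132 from edgeR. The ratio of *SLIT3* to *SLIT2* per length within a library, chosen after these values were seen, was 0.0933 to 0.108 in control and 0.160 to 0.214 in 4-OHT ATII CM.

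The main receptor, *ROBO1* (ENSG00000169855, chromosome 3, 78597240 to 79767815), was at 107, 101 and 113 CPM in control and 107, 106 and 111 CPM in 4-OHT ATII CM, with a log2 fold change of 0.012 and a 95% interval of -0.08 to 0.10. *ROBO2* (ENSG00000185008, chromosome 3, 75906695 to 77649964) was at 16.6, 13.0 and 16.7 CPM in control and 19.2, 18.3 and 17.2 CPM in 4-OHT ATII CM. It was higher in all 3 libraries of 4-OHT ATII CM, with a log2 fold change of 0.23 (adjusted p = 0.176 from edgeR) that was 0.13 without control replicate 2. *ROBO3* had a value of -0.11. *ROBO4*, the endothelial member, had 10 to 19 counts a library.

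Among EPH receptors 1 of 11 was called. *EPHA2* (ENSG00000142627, chromosome 1, 16124337 to 16156087), the most abundant of them and a receptor of ephrin-A1, was at 110, 118 and 105 CPM in control and 98.4, 95.2 and 97.1 CPM in 4-OHT ATII CM. The groups did not overlap, and the log2 fold change came to -0.19 (standard error 0.0435, edgeR adjusted p = 0.0148), a fall of 12.5%. It was not called without 4-OHT replicate 2 (adjusted p = 0.0886) or 3 (adjusted p = 0.0597). Of the other EPHA members *EPHA4*, at 6.46 RPKM, had a log2 fold change of -0.04, and *EPHA1*, *EPHA3*, *EPHA5* and *EPHA7* were below 1 RPKM.

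*EPHB4* (ENSG00000196411, chromosome 7, 100802565 to 100827521), a receptor of ephrin-B2, was at 104, 115 and 106 CPM in control and 120, 117 and 122 CPM in 4-OHT ATII CM. It was higher in all 3 libraries of 4-OHT ATII CM, with a log2 fold change of 0.14 (standard error 0.0420) and an adjusted p of 0.0677 from edgeR, and its exons overlap those of *SLC12A9* on the opposite strand by 69 bases. With 1 library left out the log2 fold change ranged from 0.11 (adjusted p = 0.261, without control replicate 1) to 0.18 (adjusted p = 0.00258, without control replicate 2), and only the latter was called. *EPHB2* had a value of 0.0052 with a 95% interval of -0.07 to 0.08 and *EPHB3* one of 0.11, and *EPHB6* and *EPHB1* had at most 10 counts in any library.

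None of the 8 ephrins was called. *EFNB3* (ENSG00000108947, chromosome 17, 7705202 to 7711378) was at 4.26, 4.54 and 3.75 CPM in control and 6.03, 4.77 and 5.90 CPM in 4-OHT ATII CM. Its groups did not overlap, and the log2 fold change of 0.42 (standard error 0.135) had an adjusted p of 0.0944 from edgeR. *EFNB1* (ENSG00000090776, chromosome X, 68828997 to 68842147) was at 73.8, 79.3 and 76.1 CPM in control and 83.8, 77.6 and 78.6 CPM in 4-OHT ATII CM, a value of 0.067, and *EFNB2* had one of -0.21.

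The 5 A-type ephrins, which are held by a lipid anchor, had log2 fold changes from 0.08 for *EFNA5* to 1.03 for *EFNA2*, and all 5 of their 95% intervals included 0. For *EFNA5* the value ranged from -0.02 to 0.15 over the alternatives. *EFNA4* (ENSG00000243364, chromosome 1, 155063731 to 155069553), the most abundant at 6.61 RPKM, was at 7.26, 8.29 and 7.99 CPM in control and 9.45, 9.22 and 7.91 CPM in 4-OHT ATII CM, with overlapping groups and a log2 fold change of 0.18 (adjusted p = 0.426). *EFNA1* had 5 to 22 counts a library, *EFNA3* 5 to 12 and *EFNA2* 1 to 7.

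Netrins and UNC5 receptors had no called gene. *NTN4* (ENSG00000074527, chromosome 12, 95657807 to 95791152), the second most abundant member, was at 234, 221 and 221 CPM in control and 234, 235 and 236 CPM in 4-OHT ATII CM. With all libraries the log2 fold change was 0.061, with a 95% interval of -0.01 to 0.13, and with 1 left out it ranged from 0.040 (without control replicate 3) to 0.088 (without control replicate 1). *NTN1* (ENSG00000065320, chromosome 17, 9021542 to 9244000), the founding netrin of vertebrates, had 19, 14 and 16 counts in control and 7, 13 and 12 in 4-OHT ATII CM. Its fitted log2 fold change of -0.85 (standard error 0.326) had an adjusted p of 0.166 from edgeR. *UNC5B* (ENSG00000107731, chromosome 10, 71212570 to 71302864), a netrin receptor, was at 80.7, 74.0 and 83.0 CPM in control and 80.7, 80.5 and 80.5 CPM in 4-OHT ATII CM, with a log2 fold change of 0.021 and an interval of -0.07 to 0.11. For *UNC5C* it was 0.12. *NTN3* and *NTN5* had 14 to 31 and 2 to 11 counts a library, and *DCC* was below the count filter.

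Ligands and receptors were then set side by side for 45 pairs known to bind, of which 39 had both genes among the members. In 26 of the 39 both genes were at 1 RPKM or more, and in 25 of the 39 the receptor was above the ligand per length. In 8 pairs the ligand was called and the receptor was not, in 2 the receptor was called and the ligand was not, and in none were both. Several pairs share a gene, so these counts are not independent. The ratio of ligand to receptor did not overlap between groups in 23 of the 39 pairs, and in 14 of the 29 pairs in which neither gene was called. A lack of overlap is thus not particular to the pairs named next, which were chosen for a called gene. Single genes did not overlap in 22.1% of all genes tested. No share was computed for ratios of other gene pairs, so whether these counts are unusual cannot be told.

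The ratio of ligand to receptor within a library does not depend on library size. *SEMA4D* to *PLXNB1* per length was 0.343, 0.364 and 0.364 in control and 0.445, 0.455 and 0.470 in 4-OHT ATII CM. *SEMA3C* to *NRP2* was 0.658, 0.730 and 0.667 in control and 0.559, 0.520 and 0.473 in 4-OHT ATII CM, and *SEMA3C* to *PLXND1* was 0.478 ± 0.0111 (SD, n = 3) and 0.377 ± 0.0265. The first ratio was higher and the others lower in 4-OHT ATII CM, without overlap between groups.

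*SLIT2* to *ROBO2* was 1.42, 1.61 and 1.38 in control and 0.954, 0.899 and 1.01 in 4-OHT ATII CM, and *SLIT2* to *ROBO1* was 0.138 ± 0.00571 and 0.105 ± 0.00608 (SD, n = 3 each). *SEMA7A* to *PLXNC1* was 3.69, 5.15 and 3.73 in control and 3.23, 2.60 and 2.72 in 4-OHT ATII CM. *EFNA5* to *EPHA2* was 0.0631 ± 0.00319 in control and 0.0763 ± 0.0104 in 4-OHT ATII CM, and *EFNA4*, the most abundant A-type ephrin, was not among the listed partners of *EPHA2*. *EFNA1* to *EPHA2* overlapped between groups, at 0.00389 to 0.00975 in control and 0.00899 to 0.0152 in 4-OHT ATII CM (exact two-sided permutation p = 0.3). An exact two-sided permutation test gave p = 0.1 for each of the other ratios named in these paragraphs, the smallest that 3 libraries against 3 allow, so that adjustment over the 39 pairs cannot bring any below 0.05. These pairs were chosen for a call on the same counts, so the test adds no evidence to the calls.

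**Figure D4:**
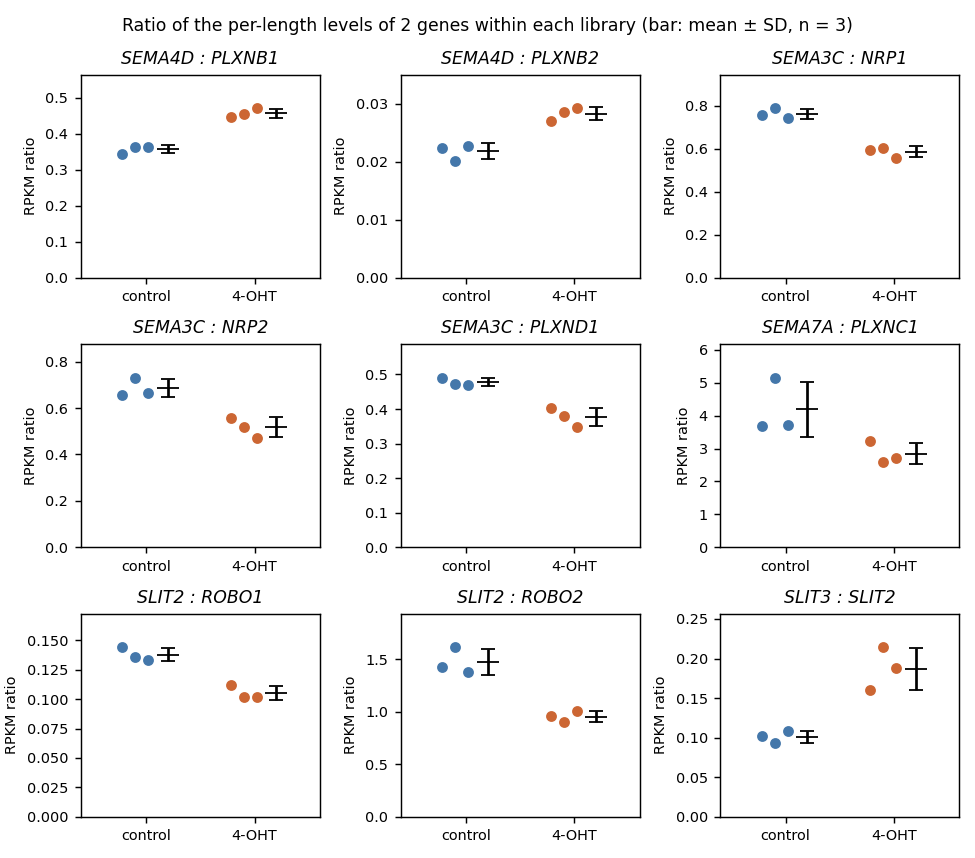
Ratio of the RPKM values of 2 genes within each library (y axes, from 0) for 8 ligand and receptor pairs and for *SLIT3* to *SLIT2*, 3 libraries a group, with mean and SD (n = 3). *SEMA4D* ratios and *SLIT3* to *SLIT2* are higher, and *SEMA3C*, *SEMA7A* and *SLIT2* to receptor ratios lower, in 4-OHT ATII CM, with no overlap in any panel; over all 39 pairs 23 had no overlap, and *EFNA1* to *EPHA2*, not plotted, overlapped.

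Genes that act with these ligands and receptors were followed through a hand-written list of 77, of which 71 were tested. Of these 9 were called (12.7%, beside 5.72% of all genes), 5 upregulated and 4 downregulated. At 1 RPKM or more the shares were 15.5% of 58 pathway genes and 9.08% of all genes. The list was written with earlier results of these data known, and its median log2 fold change was 0.041. They were 2 of 8 co-receptors and other receptors, 2 of 9 other ligands, 5 of 49 intracellular transducers and none of 5 proteases.

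*CHL1*, a cell adhesion molecule that acts with neuropilin-1, was at 13.8, 10.3 and 13.6 CPM in control and 19.0, 18.8 and 19.0 CPM in 4-OHT ATII CM, for a log2 fold change of 0.58 (adjusted p = 0.00115 from edgeR). *ABL2*, an actin-regulating kinase, went from 40.7 ± 3.51 CPM down to 31.6 ± 1.18 CPM (SD, n = 3 each), and fell by 0.37 on the log2 scale (adjusted p = 0.00143). *RGMB*, a ligand of neogenin, went from 59.3 ± 1.04 CPM down to 49.7 ± 3.01 CPM, and fell by 0.25 on the log2 scale (adjusted p = 0.00363). All 13 alternatives called these 3 genes.

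Among transducers *FARP1*, an exchange factor that binds A-type plexins, and *NCK2*, an adaptor of EPH and ephrin-B signaling, rose by log2 fold changes of 0.17 and 0.23 (adjusted p = 0.00476 and 0.0105 from edgeR). *MICAL2*, an enzyme that oxidizes actin, fell by 0.20 on the log2 scale (adjusted p = 0.00925). Also among transducers, *DPYSL2*, which encodes the semaphorin 3A mediator CRMP2, rose by a log2 fold change of 0.14 (adjusted p = 0.0350). Of co-receptors, *GPC1*, a heparan sulfate proteoglycan that binds SLIT proteins, fell by 0.13 on the log2 scale (adjusted p = 0.0254). The ninth gene, *FLRT3*, a membrane ligand of UNC5 receptors named here after its values were seen, rose by a log2 fold change of 0.28 (adjusted p = 0.0374) and was called in 7 of the 13 alternatives. *FARP1* was not called without 4-OHT replicate 3 (adjusted p = 0.0519) and *MICAL2* without 4-OHT replicate 2 (adjusted p = 0.0708). *NCK2* was not called without 4-OHT replicate 2 (adjusted p = 0.0764) or control replicate 1 (0.0581) or 3 (0.0855). *GPC1* was not called without any of 4 libraries, 4-OHT replicates 1 to 3 and control replicate 3 (adjusted p of 0.0668 to 0.137). *DPYSL2* was lost without any of 4, control replicates 1 and 3 and 4-OHT replicates 2 and 3 (adjusted p of 0.0529 to 0.215). The call of *FLRT3* was lost with DESeq2 (adjusted p = 0.081) and without control replicates 1 (0.0961) or 3 (0.139) or 4-OHT replicates 1 (0.124) or 2 (0.143).

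The 250 bases before a RefSeq transcription start are shown for 4 of the 6 called genes, the one that rose most, 2 ligands that fell and the receptor that fell, so that their promoters can be compared. They come from RefSeq on GRCh38.p14, read 5′ to 3′ on the gene's strand, and capitals mark matches to 6 motifs on either strand. These were the GC box GGGCGG, the E-box CACCTG, the AP-1 site TGANTCA, the TEAD site GGAATG, the FOXO site GTAAACA and the cAMP response element TGACGTCA. RefSeq starts differ from the gene limits of the deposited table given above. The *SEMA4D* window and the second *SEMA3C* window lie inside those limits, the *SLIT2* window lies upstream of them with a gap, and the *EPHA2* window overlaps their edge. *SEMA3C* has 2 starts in the RefSeq table, and which start MRC5 cells use was not measured for any of the 4 genes.
SEMA4D, chr9:89495657-89495906, minus strand: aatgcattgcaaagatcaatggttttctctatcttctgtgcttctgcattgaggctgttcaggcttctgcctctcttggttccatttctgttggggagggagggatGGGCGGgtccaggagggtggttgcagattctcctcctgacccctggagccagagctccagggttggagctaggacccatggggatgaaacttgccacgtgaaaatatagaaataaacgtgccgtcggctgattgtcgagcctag
SEMA3C, chr7:80922390-80922639, minus strand: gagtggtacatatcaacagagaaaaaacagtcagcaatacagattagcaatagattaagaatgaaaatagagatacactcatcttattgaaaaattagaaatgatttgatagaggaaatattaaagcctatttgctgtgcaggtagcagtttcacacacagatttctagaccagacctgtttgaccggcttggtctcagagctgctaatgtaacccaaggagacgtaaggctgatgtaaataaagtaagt
SEMA3C, chr7:80919052-80919301, minus strand: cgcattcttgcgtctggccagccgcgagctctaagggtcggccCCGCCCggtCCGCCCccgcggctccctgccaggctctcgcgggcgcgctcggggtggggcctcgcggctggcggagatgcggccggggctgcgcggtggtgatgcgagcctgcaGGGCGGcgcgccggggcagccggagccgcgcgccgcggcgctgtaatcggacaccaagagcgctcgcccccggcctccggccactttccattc
SLIT2, chr4:20251655-20251904, plus strand: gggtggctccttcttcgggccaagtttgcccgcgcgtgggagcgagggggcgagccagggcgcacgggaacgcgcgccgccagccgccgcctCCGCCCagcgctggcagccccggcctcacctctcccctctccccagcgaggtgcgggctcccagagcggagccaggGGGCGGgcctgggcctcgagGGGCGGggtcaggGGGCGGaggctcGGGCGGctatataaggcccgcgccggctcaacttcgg
EPHA2, chr1:16156070-16156319, minus strand: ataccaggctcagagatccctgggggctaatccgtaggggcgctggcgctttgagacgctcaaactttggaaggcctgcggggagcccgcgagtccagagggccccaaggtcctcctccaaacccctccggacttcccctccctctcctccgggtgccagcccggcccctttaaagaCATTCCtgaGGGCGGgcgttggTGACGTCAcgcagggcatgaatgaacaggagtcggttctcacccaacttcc

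All matches in these windows were GC boxes except in *EPHA2*, whose window held 1 cAMP response element, 1 TEAD site and 1 GC box, and no match overlapped another. In the windows of the called genes not shown, *SEMA7A* and *SEMA4B*, matches were also GC boxes, except for a FOXO site of *SEMA4B*. *SLIT2* had 5 GC boxes at 77.2% G and C, while 1 *SEMA3C* window had 3 at 77.6% and the other none at 36.4%, and *SEMA4D* had 1 at 52.4%. A GC box was in 72.8% of the 81 windows of 52 members and in 42.6% of all 35116 windows in the RefSeq table, an E-box in 17.3% and 17.5%, a TEAD site in 8.64% and 11.9%. An AP-1 site was in 1.23% and 6.57%, a FOXO site in 1.23% and 2.98%, and a cAMP response element in 3.7% and 1.65%. A match is a description of the letters only, and binding was not measured.

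**Figure D5:**
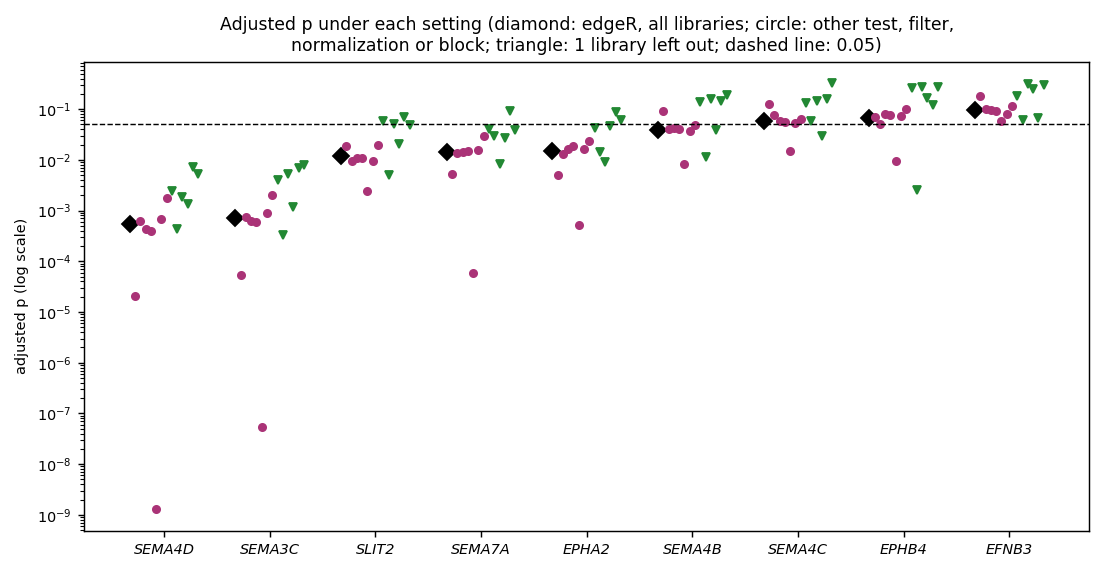
Adjusted p (y axis, log scale) of the 9 members with the smallest p (x axis) under each setting, diamonds for edgeR with all libraries, circles for other tests, filters, normalizations or the block, and triangles for 1 library left out; the dashed line is 0.05. All symbols of *SEMA4D* and *SEMA3C* lie below the line, while those of the other 7 members fall on both sides of it or above it.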

How the data were processed

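RNA-Seq of 6 MRC5 libraries was analysed, and groups came from the sample labels. The authors used Trim Galore for trimming, HISAT2 2.1.0 for alignment to GRCh38 and featureCounts 1.6.5 for counting, and deposited raw counts per gene. Their annotation release, strand setting and treatment of multi-mapping reads are not given in the sources used here. Counts of 45 identifiers listed on both X and Y were added. Symbols and biotypes were taken from GENCODE release 44 (found for 18962 of 19072 tested genes), and positions are those of the deposited table.

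Genes with at least 10 counts over the libraries entered edgeR 4.0.16 (R 4.3.3) with TMM scaling, a quasi-likelihood fit on group alone and Benjamini-Hochberg adjusted p values. Standard errors were derived from the fold change and F statistic. CPM and RPKM use TMM library sizes, RPKM with the deposited exon lengths. Variation between replicates beyond counting noise was 4.36% (square root of the common dispersion). In simulated counts of 18663 genes, edgeR called 71 of 100 genes changed by a log2 fold change of 0.5, 91 of 100 changed by 1 and 21 unchanged genes.

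Members given with values in each library were those called, those with an unadjusted p below 0.05, and the most abundant of each family. Of the other pathway genes, the 8 called genes with the smallest p are named. The ligand and receptor pairs and the pathway list were written by hand, and members and lists were chosen with earlier results of these data known. Alternatives were DESeq2 1.42.0, limma-voom (limma 3.58.1), other normalizations and filters, a replicate block and leaving out each library.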

Additional observations from a re-analysis of the deposited data

How the results depend on the processing

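The number of members called stayed at 6 with limma-voom, RLE or upper-quartile normalization, the filterByExpr filter and the replicate block, and was 5 with DESeq2 and 9 with no filter on low counts. Over all genes, 1090 were called in the main edgeR fit, 954 with DESeq2 and 1601 with no filter, so the count of members moved in the same direction as that of all genes. With 1 library left out, 2 to 8 members were called, 2 without 4-OHT ATII CM replicate 2 (*SEMA3C* and *SEMA4D*). The number of DEGs over all genes then ranged from 533 (without 4-OHT replicate 2) to 1530 (without control replicate 2), that of other pathway genes called from 4 (without 4-OHT replicate 2) to 16 (without control replicate 2), and the members had medians of -0.0042 (without control replicate 2) to 0.049 (without control replicate 1) on the log2 scale.

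The sign of the log2 fold change turned in at least 1 alternative for 17 of the 60 members, none of them called with all libraries, and the cause was not tested. Among the genes given with values in every library, leaving out a library gave values from -0.01 to 0.016 for *PLXNB2* (below 0 without control replicate 1, at -0.0073, or 4-OHT replicate 2), from -0.13 to 0.025 for *SEMA5A* (above 0 without control replicate 1), from -0.027 to 0.047 for *ROBO1* (below 0 without control replicate 2 or, at -0.013, 4-OHT replicate 3) and from -0.023 to 0.051 for *UNC5B* (below 0 without control replicate 2). With 1 library left out, the log2 fold change moved by over 1.5 times or turned in 41 of the 54 members not called. Examples are *NRP2* (0.0023 to 0.082), *SEMA6A* (0.016 to 0.077) and *EFNB1* (0.038 to 0.093). The log2 fold change did so in 0 of the 6 called. This difference, and the lack of turned signs among called members, largely follow from the call and do not support it. A value near 0 moves by a large factor easily, and a call needs a value far from 0 for its error. No share over all genes was computed. No filter also brought *SEMA4C* (adjusted p = 0.0150), *EPHB4* (0.00942) and *ROBO2* (0.0491) past the threshold.

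The deviations of libraries with the same replicate number had correlations of -0.0145, -0.104 and -0.0931. For libraries with different numbers they were -0.0645 to 0.161. Deviations were taken from the mean of each group of 3, which ties them together, and the labels give numbers only. These values therefore cannot decide whether equal numbers mark a shared culture or batch. With the replicate block 985 genes, 6 members and 7 other pathway genes were called, and the median of the members was 0.022. Of the pathway genes named, *DPYSL2* (adjusted p = 0.0511) and *FLRT3* (0.0571) were not called with it, and no call of a member changed. Genes with few counts, such as *EPHB6*, *EFNA2* and *SEMA3G*, are limited by depth.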

Other observations

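Some members are neighbors in the genome. On chromosome 1, *EFNA4*, *EFNA3* and *EFNA1* follow each other with gaps of 9.32 and 39.9 kb, and their log2 fold changes were 0.18, 0.45 and 0.54, none of them called. *ROBO3* and *ROBO4* are 2.22 kb apart on chromosome 11, with values of -0.11 and -0.26 and levels of 3.71 and 0.0896 RPKM. *SEMA3F* and *SEMA3B*, 78.5 kb apart on chromosome 3, were both abundant (17.2 and 15.7 RPKM) and had values of 0.08 and -0.02.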
